A study of Mus musculus with 64 samples.

Results

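CD11b+Ly-6C-high cells of the inflamed mouse colon, the surface phenotype of newly recruited monocytes, were followed through 7 weeks of T cell transfer colitis by counting antibody tags on single cells. They were 8583 of 130442 kept cells (6.58%) in 9 libraries of the sorted immune fraction, and 7358 of them carried CD64 and 2611 carried CD11c. The cells were chosen by 4 of the 11 antibodies on the panel: CD11b above 0.712, Ly-6C above 3.162, CD3 at or below -0.155 and Ly-6G at or below 0.982. Each value is a centred log ratio: 1 was added to the count, the natural log taken, and the mean of the cell's 11 log values subtracted. CD64 (cut 0.105) and CD11c (cut 0.497) divided the chosen cells further but did not choose them. The levels of the 4 antibodies in these cells are therefore given as description only.

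The tissue was distal colon of SCID mice, which lack their own T and B lymphocytes. All 9 libraries are labelled as CD45RBhi transfer, week 0 included, meaning that the host received naive T cells that cause colitis. The treated library came from mice also given anti-IL-12p40 from day 10, which blocks the p40 chain of the cytokines IL-12 and IL-23, and collected at week 7. The other 8 libraries were untreated, 1 from each of weeks 0 to 7, and each library pooled colons of 3 animals sorted as EpCAM- and CD45+. Of the 64 samples of the series, 55 were not analysed here. With 1 pool per week and per treatment, the spread between pools of the same kind is unknown, and p-values over weeks measure how unusual a relation is among all orderings of the pools.

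Ly-6C-high monocytes leave the blood and enter the colon continuously, and in inflammation they arrive in larger numbers. In healthy mouse colon they lose Ly-6C and gain CD64, an Fc receptor for IgG, and then CD11c, an integrin chain, as they become tissue macrophages. CD11b, the integrin chain used in the choice, is carried by monocytes, macrophages and neutrophils, and Ly-6G marks neutrophils.

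Ly-6C and CD11b were high in the chosen cells of every library by the choice itself. CD64, which did not choose them, was carried by 58.0% to 98.7% at untreated weeks 0 to 7. In the treated library it was carried by 47.2%. With counts scaled to 1000 per cell it was 32.6%, 36.0% and 35.9% at weeks 0, 1 and 6. It was then 51.1% to 91.5% at the other untreated weeks and 38.3% with treatment. The median Ly-6C count of the chosen cells lay between 1333 at week 2 and 4759 at week 3, and Ly-6C made up 69.8% to 88.4% of all their antibody counts. Their median CD11b count was 167 to 498. CD3+CD4+ T cells, which should lack CD11b, CD64 and CD11c, had medians of 4 to 10 for CD11b, 2 to 9 for CD64 and 3 to 11 for CD11c at weeks 1 to 7, with medians of 839.5 to 1915 counts in all. Those T cells had 61 to 255 Ly-6C counts. Some T cells carry Ly-6C, so this is not a measure of its background. The name monocyte phenotype rests on these 3 proteins and on the absence of CD3 and Ly-6G, and no RNA was used.

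The Ly-6C cut runs through a continuum. The low and high Ly-6C populations were 1.82 of their spreads apart (Ashman's D), against 3.27 for CD64 and 3.12 for CD11c, where a value under 2 means that populations are not separated. Within 0.25 of the cut, 938 chosen cells lay just inside (10.9%; 3.77% to 15.6% by library) and 1070 cells just outside. The median counts just inside were 608.5 for Ly-6C, 66 for CD64 and 56 for CD11c, and just outside they were 401 for Ly-6C, 52 for CD64 and 60 for CD11c. The cells on either side of the cut thus carried similar CD64 and CD11c. A background peak of Ly-6C was taken as its most frequent value in cells at or below the CD11b cut. Those cells include T cells, some of which carry Ly-6C, so the peak is not a measure of background alone. It lay at 2.65 at week 2 and between 1.35 and 2.15 in the other 8 libraries, which moves with the week 2 share given next.

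Depth differed between libraries and was high in the chosen cells. Barcodes numbered 11534 to 21229 per library, with 12914066 to 28723452 counts in all, and 3 libraries held more barcodes than the about 16000 cells loaded. The median total per chosen cell was 1747 to 5679 counts, against 576.5 to 1566 over all kept cells. The filter that left out the top 1% of each library by total removed 1325 barcodes, of which 694 met the same 4 cuts. Pairs of libraries shared 29 to 108 barcodes, and 253 chosen cells had a barcode that also occurred in another library. No doublet caller was run on the antibody counts.

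The first question was how the monocyte phenotype varied over the course of colitis. It was rare at week 0, most frequent at week 2, and again a small part of the infiltrate at week 7. The chosen cells were 1.68% of kept cells at week 0 (95% exact binomial interval 1.49 to 1.89), 6.34% a week later and 16.5% (16.0 to 17.0) at week 2. Weeks 3 to 6 had 7.42%, 9.13%, 3.56% and 7.09%, and week 7 had 0.932% (0.767 to 1.12). These intervals cover counting error only. The week 2 share was above all others by more than counting error, and that order held with the Ly-6C cut moved by each library's background peak (12.4% at week 2), with cells thinned to 200 counts (16.0%) and with counts scaled to 1000 per cell (14.0%).

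CD3- cells were 1422 of 11907 kept cells at week 7, so the share of CD3- cells was also taken. Of CD3- cells, the chosen cells made up 1.69% at week 0, then 6.83%, 28.2%, 19.3%, 20.4%, 12.6% and 16.1% over weeks 1 to 6, and 7.81% (6.46 to 9.32) in week 7. On this scale week 0 was the lowest of the untreated libraries, and weeks 2 to 6 were all above weeks 1 and 7. More cells of this phenotype and fewer cells of other phenotypes cannot be told apart in such shares. Neither share had a passing relation with week over the 8 untreated libraries. For the share of kept cells Spearman's coefficient was -0.190 (two-sided exact permutation p = 0.665, adjusted p = 0.665) and Pearson's r was -0.228 (exact p = 0.605). For the share of CD3- cells the Spearman coefficient was 0.214 (exact p = 0.619, adjusted p = 0.665) and r was 0.147 (exact p = 0.725). The test looks for a steady rise or fall and does not describe a course with its peak inside. Adjustment was by the Benjamini-Hochberg method over 5 shares, of which none passed at 0.05. Without the upper filter on counts the week 7 share was 1.42%, and with the Ly-6C cut lower by 0.5 the week 0 share was 2.57%. Week 6 had 4.71% of kept and 8.98% of CD3- cells when counts were scaled to 1000 per cell.

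**Figure D1:**
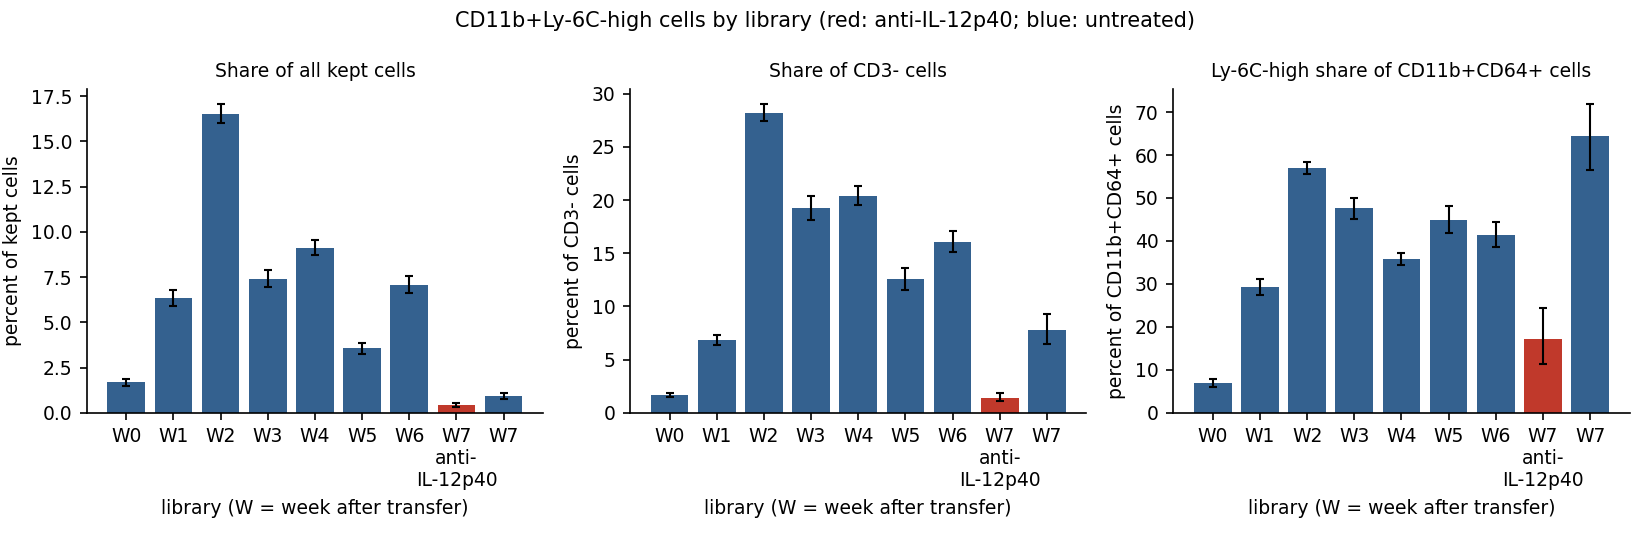
Shares of CD11b+Ly-6C-high cells (percent) in each library, of kept cells, of CD3- cells, and of CD11b+CD64+ cells; bars are single libraries and error bars are 95% exact binomial intervals. Week 2 is highest in the first 2 panels, and the anti-IL-12p40 library lies below untreated week 7 in all 3.

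A second measure sets the same cells against CD64+Ly-6C-low cells, here called the macrophage phenotype. Among all CD11b+CD64+ cells without CD3 and Ly-6G, the Ly-6C-high share was 6.87% (6.02 to 7.80) at week 0, then 29.3%, 56.9%, 47.6%, 35.8%, 45.0% and 41.5% over weeks 1 to 6, and 64.4% (56.4 to 71.8) in week 7. At week 0 the CD64+ cells were mostly Ly-6C-low, with 221 Ly-6C-high beside 2995 Ly-6C-low cells. Of those Ly-6C-low cells, 50.4% were above the cut for CD90.2, a protein of lymphoid cells. At week 1 it was 41.0%, and at weeks 2 to 7 it was 2.63% to 17.7%. The name macrophage phenotype is therefore loose at weeks 0 and 1. Of the chosen cells, 27.0% at week 0 and 18.4% at week 1 were above the CD90.2 cut, against 0.917% to 14.5% at weeks 2 to 7. The name monocyte phenotype is thus also less firm at weeks 0 and 1. At week 7 there were 103 Ly-6C-high beside 57 Ly-6C-low cells. Week 0 lay below all later weeks beyond counting error. The Spearman coefficient with week was 0.595 (exact permutation p = 0.132, adjusted p = 0.661) and r was 0.686 (exact p = 0.0552), which did not pass. Without weeks 0 and 7 the Spearman coefficient was 0.0286 (exact p = 1.00) and r was 0.0737. Without cells positive for CD4 or CD90.2, the week 0 share was 14.3%.

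CD64 varied widely in the chosen cells, both between libraries and between cells of 1 library. Over weeks 0 to 7 the CD64+ share of the chosen cells was 78.6%, 85.7%, 85.6%, 85.7%, 98.7%, 96.2%, 58.0% and 92.8%. Weeks 4, 5 and 7 were above 90% and week 6 was lowest. Many week 6 cells lay near the cut: the median CD64 count of its 340 CD64- cells was 40, against 6 to 35 in the CD64- cells of weeks 0 to 5 and 43.5 in the 8 CD64- cells of week 7. When the CD64 cut was moved in each library with the median CD64 level of CD64+Ly-6C-low cells, an alternative chosen after the data were seen, week 6 had 90.1% and the other untreated weeks 80.2% to 97.4%. With counts scaled to 1000 per cell the CD64+ share was 32.6%, 36.0% and 51.1% over weeks 0 to 2 and 35.9% in week 6, so the level of this share depends on the scaling. The Spearman coefficient with week was 0.286 (exact permutation p = 0.501, adjusted p = 0.665), with r = 0.0113 (exact p = 0.980).

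**Figure D2:**
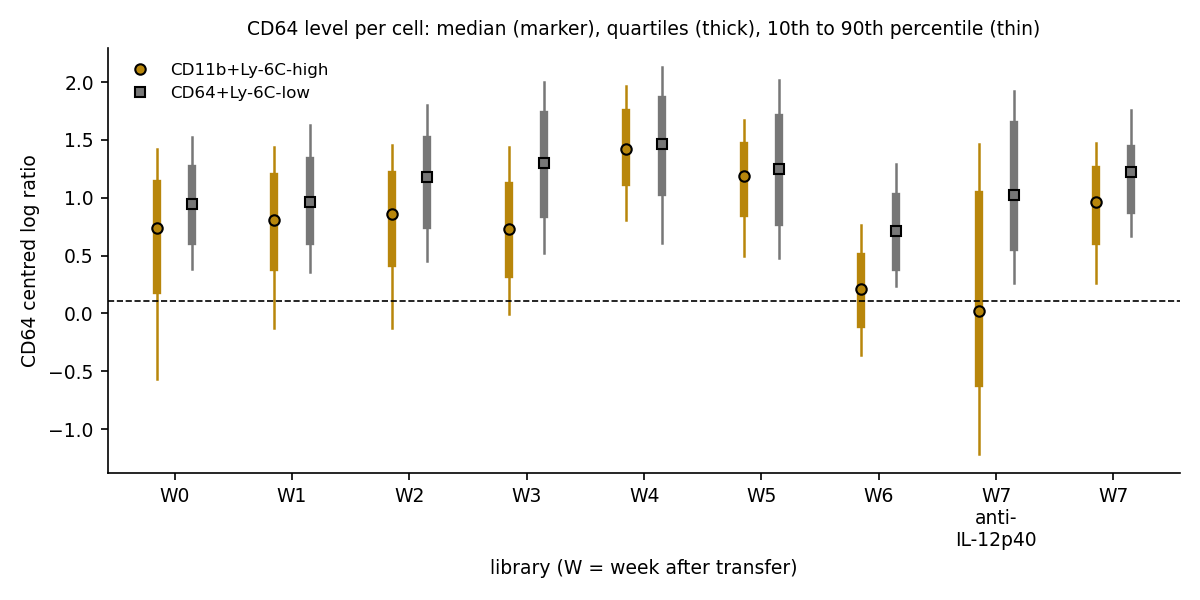
CD64 centred log ratio per cell in CD11b+Ly-6C-high and CD64+Ly-6C-low cells of each library; markers are medians, thick bars quartiles, thin bars the 10th to 90th percentile, and the dashed line is the cut of 0.105. The medians of Ly-6C-high cells lie below those of Ly-6C-low cells in all 9 libraries, and at week 6 the Ly-6C-high median lies close to the cut.

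Median CD64 counts were also set against those of the macrophage phenotype of the same library. The CD64 cut does not limit the chosen cells here, but it does limit the macrophage phenotype. The ratio of the medians therefore still depends on the cut. Over weeks 0 to 7 the chosen cells had median CD64 counts of 67, 38, 35, 104, 103, 117, 49 and 115. CD64+Ly-6C-low cells, which were selected on CD64 and so must be high, had 135, 70, 61, 193, 123, 161, 76 and 179 in the same order. The ratio of these medians was 0.496, 0.543, 0.574 and 0.539 at weeks 0 to 3, and 0.837, 0.727, 0.645 and 0.643 at weeks 4 to 7. The ratios of weeks 4 to 7 were all above those of weeks 0 to 3. This was noticed after the data were seen and was not tested.

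CD11c, a protein of mature intestinal macrophages and of dendritic cells, was carried by a minority of the chosen cells in every library. Over weeks 0 to 7 the CD11c+ share was 28.8%, 20.2%, 37.6%, 16.4%, 41.0%, 14.7%, 17.1% and 26.1%. Weeks 2 and 4 stood highest and week 5 lowest, but this order depends on the scaling and the Ly-6C cut. Scaled to the library median, weeks 2 and 4 had 11.1% and 14.1% and week 6 was highest at 33.0%. After scaling to 1000 counts per cell week 2 had 21.1% and week 0 had 22.3%. Week 3 was lowest with the Ly-6C cut higher by 0.5 (11.3%) or moved by the background peak (14.9%). The Spearman coefficient with week was -0.286 (exact permutation p = 0.501, adjusted p = 0.665), with r = -0.229 (exact p = 0.574). CD64 and CD11c together divided the cells into 4 groups, of which CD64+CD11c- was the most frequent in all 8 untreated libraries, at 47.3% to 81.8%. CD64+CD11c+ cells, positive for both proteins, were 19.6%, 17.0%, 32.2% and 14.5% at weeks 0 to 3 and 40.4%, 14.3%, 10.6% and 26.1% at weeks 4 to 7. CD64-CD11c+ cells were 0% to 9.25%. At week 7 there were 0 of 111, which allows a share of up to 2.70%.

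**Figure D3:**
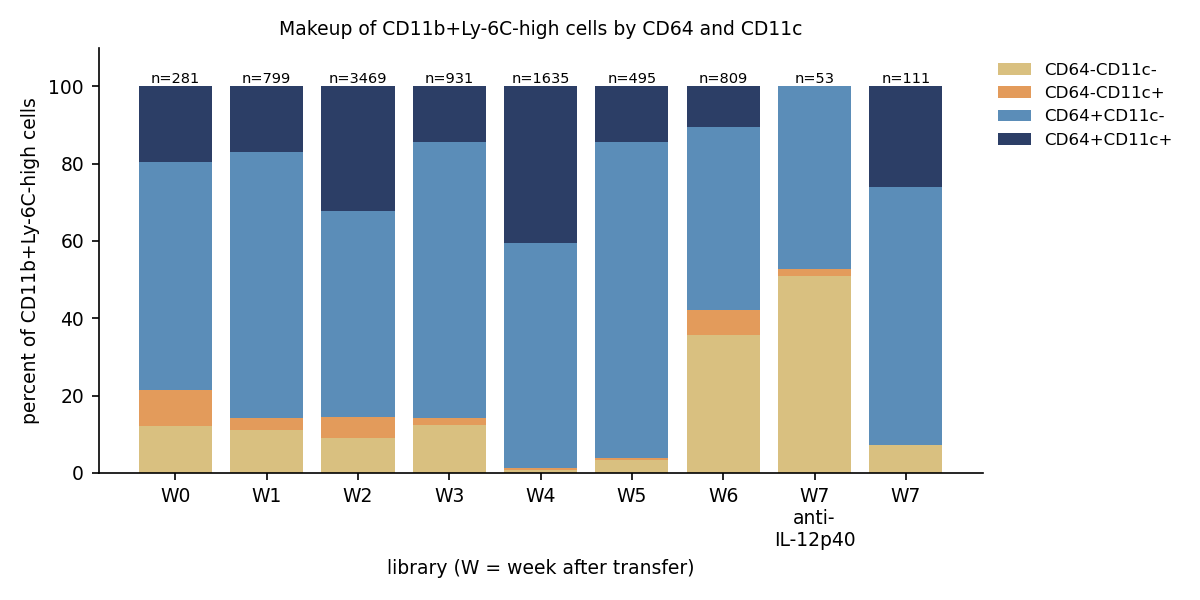
Makeup of CD11b+Ly-6C-high cells (percent, stacked to 100) by CD64 and CD11c in each library, with the number of cells above each bar. CD64-CD11c- cells make up 35.6% at week 6 and 50.9% in the anti-IL-12p40 library, and 0.734% to 12.4% elsewhere.

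Within a library, CD64 spread over a wide range. Ranked by CD64 level and cut into 4 equal groups, low to high, the week 2 cells had median CD64 counts of 13, 28, 40 and 65, and the week 4 cells 55, 82, 118 and 173. Along the same groups the CD11c+ share at week 2 was 34.2%, 30.9%, 37.0% and 48.2%, and at week 4 it was 35.5%, 36.7%, 40.1% and 52.0%. The week 0 library ran the other way, with 40.8% CD11c+ cells in the lowest CD64 group and 15.7% in the highest. The highest group held the most CD11c+ cells in 6 of 9 libraries. Its median Ly-6C count was the lowest of the 4 groups in 7 of 9. Across cells, with both antibodies of a pair left out of the centring, the correlation of CD64 with CD11c was 0.0890 to 0.392 over the 9 libraries. That of CD11c with Ly-6C was -0.417 to -0.0998. That of CD64 with Ly-6C was -0.221 to 0.312 and above 0 in 7 of 9 libraries, mostly opposite to the order of the groups. These are descriptions over cells that share a library and a depth.

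The comparison of CD64+ with CD64- cells among those chosen was made within libraries holding at least 20 of each, which left out untreated weeks 5 and 7. Levels were medians of the log counts, centred without the antibody used for the division. None of 6 antibodies passed the two-sided exact sign-flip permutation test after adjustment, and 1 had an unadjusted p under 0.05. CD11c averaged -0.169 in CD64+ cells and -0.336 in CD64- cells, a difference of 0.167 ± 0.108 (SD, n = 7 libraries), higher in 6 of 7 (exact permutation p = 0.0313, adjusted p = 0.188). With cells thinned to 200 counts the CD11c difference was 0.168 and passed (exact adjusted p = 0.0234), and without CD4+ or CD90.2+ cells it was -0.0840 (exact adjusted p = 0.969). At week 5 the 476 CD64+ cells had median counts of 15 for CD4 and 51 for CD90.2, both T cell proteins, against 99 and 212 in the 19 CD64- cells. Whether such droplets held a second cell was not tested.

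CD11c+ cells were compared with CD11c- cells in the same way in the 8 untreated libraries. CD64 averaged 1.05 in CD11c+ cells and 0.800 in CD11c- cells, a difference of 0.246 ± 0.149 (SD, n = 8 libraries; exact permutation p = 0.0156, adjusted p = 0.0469), higher in 7 of 8. CD4 averaged -0.917 in CD11c+ cells and -1.10 in CD11c- cells, a difference of 0.184 ± 0.0957, higher in 8 of 8 (exact permutation p = 0.00781, the smallest the design allows, adjusted p = 0.0469). These 2 of 6 antibodies passed, but neither did when centred over all 11 antibodies, with a difference of 0.0750 for CD64 and 0.00525 for CD4. Leaving out a single library left 0 to 2 calls.

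CD11c counts were higher where Ly-6C was lower. All CD11b+CD64+ cells without CD3 and Ly-6G were divided by Ly-6C level, which puts the chosen cells at the upper end. At week 4 the median CD11c count was 385.5 in cells with Ly-6C up to 1.5 and then, in steps of 0.5, 273.5, 175, 94, 70, 45 and 27, with 16 above 4.5. The CD11c+ share there was 95.0% in the lowest step and 14.1% in the highest. At week 0 the median CD11c count was 113 in the lowest Ly-6C step and 11 in the highest, at week 3 it was 482 and 31, and at week 6 it was 225 and 18. In weeks 2 to 6 the median CD11c count was lower at each higher step, and weeks 0 and 1 had 1 or more steps that went the other way. The CD11c values are counts with no centring, while the steps are set by a centred value whose mean contains CD11c.

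**Figure D4:**
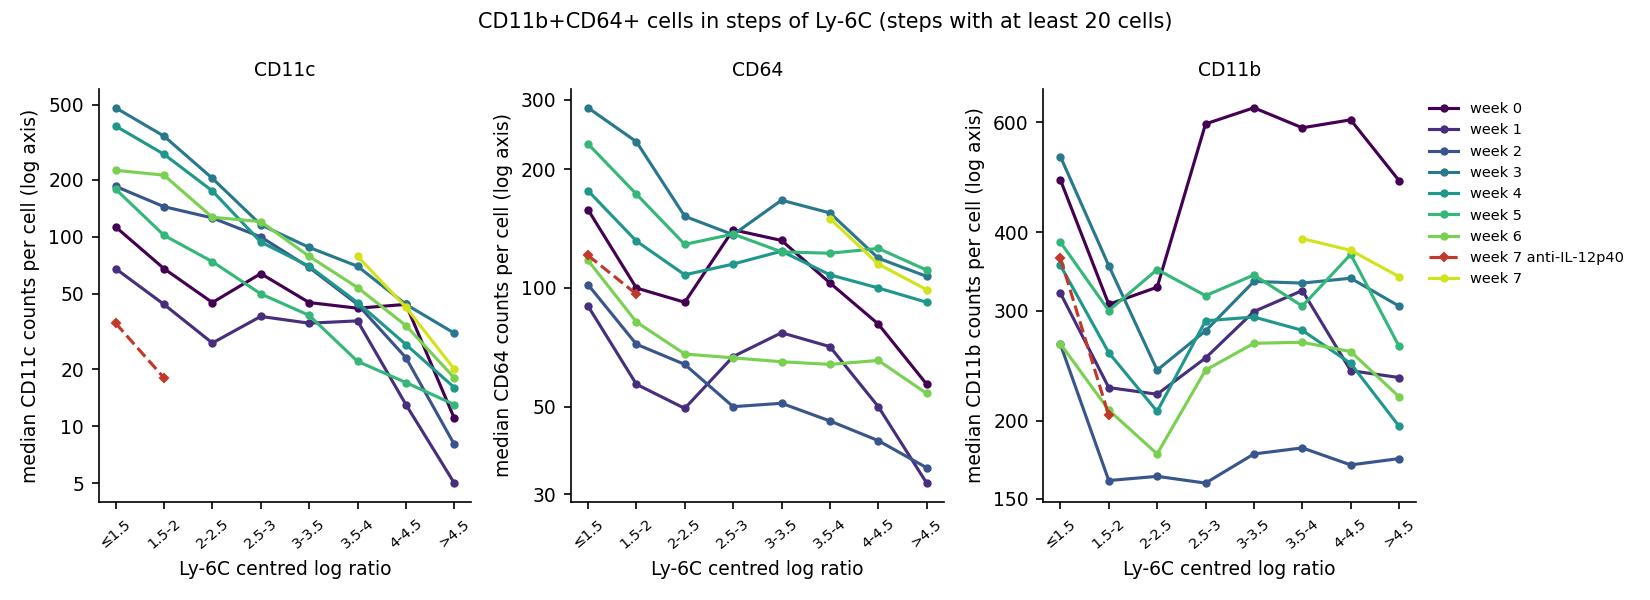
Median counts per cell of CD11c, CD64 and CD11b (log axes) in CD11b+CD64+ cells divided into steps of the Ly-6C centred log ratio, 1 line per library; steps with fewer than 20 cells are not drawn. CD11c is lowest in the highest Ly-6C step in every untreated library, and so is CD64, whose lines are less steep; CD11b has no common order.

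CD64 was also lowest in the highest Ly-6C step of every untreated library, with median counts of 57, 32, 35, 107, 92, 111, 54 and 99 over weeks 0 to 7, and in weeks 0 to 6 it was highest in the lowest step, at 90 to 286.5. Between those ends its order varied between libraries. These cells were selected on a CD64 value centred on the same mean as the Ly-6C steps. A higher mean puts a cell in a lower step and requires a higher CD64 count, so the selection itself favours this order. At week 3 the lowest step was also higher in median CD3, CD4 and CD90.2, at 45, 119 and 304, against 21, 11.5 and 45 in the highest. Ly-6G was not, at 25.5 against 29. Median CD64 in the chosen cells was 0.223 to 0.837 times that of CD64+Ly-6C-low cells over the 9 libraries. Median CD11b in the chosen cells was 0.905 to 1.25 times that of CD64+Ly-6C-low cells over the 9 libraries, and median CD11c was 0.138 to 0.298 times. The CD4+ share also differed along Ly-6C. At week 1 it was 26.7% in the lowest step and 0.578% in the highest, and at week 2 it was 52.3% in the lowest and 0.706% in the highest. CD4 is carried by T cells and, in the mouse gut, by some long-lived resident macrophages. The lowest step of those weeks was also higher in CD3 and CD90.2. At week 2 its median counts were 21 for CD3 and 526 for CD90.2, against 3 and 29 in the highest step. At week 1 they were 7 and 618, against 2 and 21. Which kind of cell the CD4 came from was not tested.

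The difference between the monocyte and macrophage phenotypes was tested over the 9 libraries, the treated one included, on antibodies that define neither. CD11c+ cells were 1.89% of the chosen cells in the treated library and 14.7% to 41.0% at untreated weeks 0 to 7, as given above by week. Of CD64+Ly-6C-low cells they were 24.2% in the treated library and 52.7%, 54.3%, 88.6%, 84.9%, 92.3%, 59.6%, 83.7% and 73.7% at untreated weeks 0 to 7. The CD11c+ share was lower in the chosen cells in 9 of 9 libraries. The mean was 22.7% in the chosen cells and 68.2% in CD64+Ly-6C-low cells, a difference of -45.6 ± 16.5 percentage points (SD, n = 9; exact sign-flip permutation p = 0.00391, the smallest 9 libraries can give, adjusted p = 0.00781). Over all alternatives tried the difference was -58.3 to -42.6.

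CD4 and CD90.2, a protein of T cells and innate lymphoid cells, were also above their cuts on a smaller share of the chosen cells. CD4 was carried by 1.53% to 13.9% of the chosen cells over the libraries and by 5.92% to 32.7% of CD64+Ly-6C-low cells, a mean difference of -11.0 ± 6.10 points, lower in 9 of 9 (exact permutation p = 0.00391, adjusted p = 0.00781). CD90.2 was carried by 0.917% to 27.0% of the chosen cells and by 2.63% to 50.4% of CD64+Ly-6C-low cells, a mean difference of -8.59 ± 8.86 points, lower in 9 of 9 (exact permutation p = 0.00391, adjusted p = 0.00781). With counts scaled to the library median the CD90.2 difference did not pass (exact adjusted p = 0.141). CD127, KLRG1 and CD103 did not pass in the main comparison (exact adjusted p = 0.0820 to 0.199). Median totals per cell were higher in the chosen cells of every library. Their high Ly-6C counts raise the mean that is subtracted, which lowers their other values. Median CD90.2 counts over weeks 0 to 7 were 84, 30, 31, 48, 29, 52, 97 and 60 in the chosen cells. In CD64+Ly-6C-low cells they were 410, 85, 32, 54, 28, 69, 107 and 70, and so close at weeks 2 to 4 and 6. Median CD4 counts in the chosen cells were 0.121 to 0.735 times those of CD64+Ly-6C-low cells over the libraries.

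**Figure D5:**
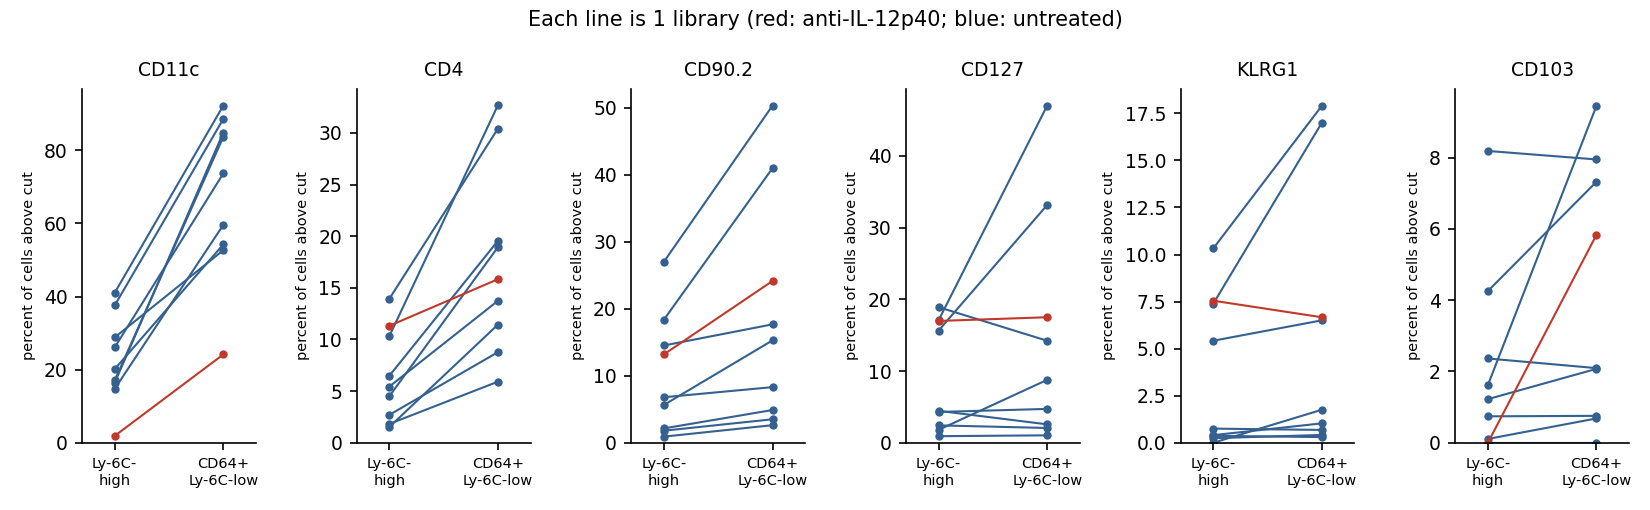
Percent of cells above the cut for 6 antibodies in CD11b+Ly-6C-high cells (left in each panel) and CD64+Ly-6C-low cells (right) of the same library, 1 line per library. CD11c, CD4 and CD90.2 are lower in the Ly-6C-high cells in all 9 libraries; CD127, KLRG1 and CD103 have lines in both directions.

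Neutrophils have the phenotype CD11b+Ly-6G+, and a larger share of the chosen cells than of neutrophils lay above the CD64 cut. CD64 was carried by 47.2% of the chosen cells in the treated library and by 58.0% to 98.7% at untreated weeks 0 to 7, as given above by week. Of CD11b+Ly-6G+ cells it was carried by 1.64% in the treated library and by 18.4%, 48.6%, 40.8%, 39.8%, 53.2%, 9.37%, 3.48% and 0.620% at untreated weeks 0 to 7. The chosen cells were higher in 9 of 9, by 56.9 ± 19.6 points (SD; exact permutation p = 0.00391, adjusted p = 0.0137). The Ly-6G+ cells of weeks 1 to 4 carried CD64 more often than those of weeks 5 to 7. In median counts week 1 had the other order, with 38 CD64 counts on the chosen cells and 62 on CD11b+Ly-6G+ cells. The chosen cells had the higher median in the other libraries. Ly-6G counts enter the mean subtracted from each value and so lower the CD64 value of Ly-6G+ cells. CD11c was carried by a mean of 22.7% of the chosen cells and 24.2% of CD11b+Ly-6G+ cells and did not pass (exact permutation adjusted p = 0.852). The CD90.2+ share was lower in the chosen cells in 9 of 9 libraries, by 13.2 points (exact permutation adjusted p = 0.0137). The CD4+, KLRG1+ and CD103+ shares were lower in 8 of 9 (exact permutation adjusted p = 0.0273 each). With counts scaled to the library median none of the 7 antibodies passed, and CD64 then differed by 37.1 points (exact adjusted p = 0.0547).

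The 5 antibodies that neither chose nor divided the cells gave a further view of their course. KLRG1, a receptor of lymphocytes, was above its cut on 10.3%, 7.38%, 5.42% and 0.752% of the chosen cells at weeks 0 to 3 and on 0.245%, 0.404%, 0.371% and 0% at weeks 4 to 7. CD103, an integrin chain of mucosal T and dendritic cells, was above its cut on 8.19%, 4.26%, 2.36% and 0.107% at weeks 0 to 3 and on 1.22%, 1.62%, 0.742% and 0% at weeks 4 to 7. The 0 of 111 at week 7 allows a share of up to 2.70%. Both shares were highest at week 0, and both shares fell with week. The Spearman coefficient was -0.929 for KLRG1 (exact permutation p = 0.00223, adjusted p = 0.0112; r = -0.888, exact p = 0.000347) and -0.833 for CD103 (exact p = 0.0154, adjusted p = 0.0384; r = -0.808, exact p = 0.00536). Without weeks 0 and 7 the Spearman coefficient was -0.829 for KLRG1 (exact p = 0.0583) and -0.600 for CD103 (exact p = 0.242). Median counts on the chosen cells did not fall with these shares. Over weeks 0 to 7 they were 2, 1, 1, 5, 2, 2, 4 and 3 for KLRG1. For CD103 they were 8, 4, 3, 15, 6, 16, 15 and 18.

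KLRG1 was also less frequent late than early on the macrophage phenotype, a comparison that was not tested. On CD64+Ly-6C-low cells KLRG1 was above its cut on 17.9% at week 0, 17.0% at week 1 and 0.302% to 6.50% at weeks 2 to 7. CD103 was above its cut on 7.95% of those cells at week 0, 7.32% at week 1 and 9.45% at week 5, its highest there. Median KLRG1 counts on the chosen cells were 1 to 5. Neither trend passed with cells thinned to 200 counts (KLRG1 Spearman coefficient -0.833, exact adjusted p = 0.0769; CD103 -0.571, 0.252) or with counts scaled to the library median (KLRG1 Spearman coefficient -0.321 and CD103 0.0714, exact adjusted p = 0.906 for both). The CD90.2+ share, 27.0% at week 0 and 1.80% at week 7, did not pass (Spearman coefficient -0.714, exact adjusted p = 0.0960), nor did CD127 (Spearman coefficient -0.595, exact adjusted p = 0.165) or CD4 (Spearman coefficient -0.214, exact adjusted p = 0.619).

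The last question was how the monocyte phenotype of the anti-IL-12p40 library compared with that of untreated week 7. With 1 pool on each side, treatment and a difference between pools cannot be told apart. The treated library had fewer such cells, fewer of them carried CD64, and 1 of 53 carried CD11c. The chosen cells were 0.426% of kept cells (53 of 12437; interval 0.319 to 0.557) in the treated library and 0.932% (111 of 11907; 0.767 to 1.12) in the untreated week 7 library, a ratio of 0.457. Of CD3- cells they were 1.44% (1.08 to 1.87) with treatment and 7.81% (6.46 to 9.32) without, a ratio of 0.184. Of CD11b+CD64+ cells, 17.2% (25 of 145; 11.5 to 24.4) were Ly-6C-high in the treated library and 64.4% (103 of 160; 56.4 to 71.8) in the untreated one, a ratio of 0.268. The treated share of CD3- cells was also below untreated week 0, at 1.69%, though their intervals overlap.

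CD64+ cells were 47.2% (25 of 53; 33.3 to 61.4) of the chosen cells with treatment and 92.8% (103 of 111; 86.3 to 96.8) without. The treated library held cells at both ends: in 4 equal groups by CD64 level the median CD64 counts were 5.5, 15, 53 and 102 with treatment and 57.5, 110.5, 126 and 170 without. CD11c+ cells were 1 of 53 (1.89%; 0.0478 to 10.1) with treatment and 29 of 111 (26.1%; 18.2 to 35.3) without. The single CD11c+ cell of the treated library was CD64- and carried 130 KLRG1 counts. The treated library had 0 of 53 CD64+CD11c+ cells, which allows a share of up to 5.66%, and the untreated one 26.1%. Median counts in the chosen cells were 22 for CD64 and 7 for CD11c with treatment, and 115 for CD64 and 40 for CD11c without. Median Ly-6C was 3014 with treatment and 3150 without.

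Low CD11c was shared by the treated macrophage phenotype. CD11c was carried by 24.2% of 120 CD64+Ly-6C-low cells with treatment and 73.7% of 57 without, with medians of 23.5 and 144 counts. Of the treated library's steps of Ly-6C, the 2 lowest held enough cells, and their median CD11c counts were 35 and 18, below those of weeks 0 to 6 at the same steps. Median totals in CD64+Ly-6C-low cells were 907 with treatment and 1385 without, and in the chosen cells 3584 with treatment and 4034 without. The part of depth in these values was not tested beyond thinning and scaling the counts. Thinned to 200 counts, CD11c+ cells were 0 of 46 chosen cells with treatment and 23.8% without. Scaled to the library median they were 31.0% with treatment and 27.6% without. Scaled to 1000 counts per cell they were 10.6% with treatment and 17.6% without.

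A single library stood on each side, so no p-value is given. A difference counted as large where its ratio reached 1.5 in either direction, the intervals were apart and the treated value lay outside untreated weeks 5 to 7. All 5 shares met that rule. With counts scaled to the library median the ratio was 0.778 for the share of kept cells, 0.712 for CD64+ and 1.12 for CD11c+ cells, none of them large. After scaling to 1000 counts per cell it was 0.441 for the share of kept cells, which stayed large, and 0.514 for CD64+ and 0.603 for CD11c+ cells, which did not. Of the other antibodies, CD127, the interleukin-7 receptor, met the rule, on 9 of 53 cells (17.0%) with treatment and 2 of 111 (1.80%) without. Its positive and negative cells were not separated (Ashman's D 1.56), and its ratio of 9.42 was 3.80 and no longer large after scaling to 1000 counts per cell. KLRG1 was above its cut on 4 of 53 cells with treatment and 0 of 111 without, with overlapping intervals.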

How the data were processed

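Antibody tags for 11 surface proteins were counted per barcode in 9 pooled libraries on a droplet instrument. The authors deposited raw tag counts, whole numbers with no normalization. Seurat 4.1.1 and Cell Ranger 6.0.2 are named, with the build mm10, in the submitters' processing notes. The selection of barcodes is not stated there. Groups come from the labels, with anti-IL-12p40 given from day 10.

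Barcodes with fewer than 50 counts (150) or above the library's 99th percentile of total (1325) were left out of 131917. Cuts for the 5 remaining antibodies were set where the 2 components of a Gaussian mixture were equally probable, fitted on 2000 cells per library. Every antibody of the panel is named. CD64+Ly-6C-low and CD11b+Ly-6G+ cells used the same cuts. Shares carry exact Clopper-Pearson 95% intervals over cells. Each group holds 1 pool, so intervals and limits from a count of 0 (3 counts) cover counting error only. Trends used Spearman's and Pearson's correlation with week over all 40320 orderings, and comparisons within libraries an exact sign-flip test over libraries, both two-sided with Benjamini-Hochberg adjustment. Cells were not treated as replicates. The members and lists were chosen with earlier results of these data known. Alternatives were other scalings (with each cut at the same pooled quantile), thinning to 200 counts, other Ly-6C cuts, other count filters, leaving out CD4+ or CD90.2+ cells, other centring and leaving out each library. The steps were tested on simulated data. Scripts ran on Python 3.11.15 with scikit-learn 1.9.0, pandas 2.3.3, scipy 1.17.1, numpy 2.4.6 and matplotlib 3.10.9.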

Additional observations from a re-analysis of the deposited data

Results flagged for a closer look

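Barcodes with the highest antibody totals, which the main comparisons left out, met the 4 cuts more often than other barcodes. Of the 1325 barcodes above the 99th percentile of their library's total, 694 met the cuts (52.4%), against 6.58% of kept cells. By library the share was 17.3% in the treated library and, at untreated weeks 0 to 7, 24.1%, 41.4%, 67.6%, 64.6%, 45.1%, 77.3%, 87.1% and 49.6%. Ly-6C alone made up 69.8% to 88.4% of the antibody counts of the kept Ly-6C-high cells. Whether these barcodes hold 1 cell or several was not tested.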

How the results depend on the processing

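No paired analysis was possible because each group holds 1 library and the labels give no numbers that pair libraries of different groups. The comparisons of phenotypes within a library are paired by library. With counts scaled to the library median, the Spearman coefficient with week was 0.119 for the share of kept cells, 0.179 for CD11c+, 0.536 for CD4, 0.108 for CD90.2 and 0.0714 for CD103, each opposite in sign to the main value. None of the 5 other antibodies and none of 7 against CD11b+Ly-6G+ cells passed. The treated ratios were then 0.778 for the share of kept cells, 0.712 for CD64+ and 1.12 for CD11c+, and 2 of 5 shares were large. This scaling leaves no Ly-6C-high cell at week 1, since the moved Ly-6C cut lies above what that library's median total allows. Scaling to 1000 per cell, added after seeing the data, gave 1 call among the other antibodies, 6 of 6 against CD64+Ly-6C-low cells, and ratios of 0.514 (CD64+) and 0.603 (CD11c+), with 3 of 5 large.

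Thinning, which left out 0.366% to 13.7% of cells, gave a Spearman coefficient of 0.0476 for CD11c+ and 0.143 for CD127, 0 calls among the other antibodies and 3 for CD64+ against CD64- cells. There the CD90.2 and CD103 differences were 0.0272 and -0.000998. Thinned CD11c+ minus CD11c- differences were 0.0232 for CD90.2 and -0.113 for CD127. For CD127 and KLRG1 they were 4.82 and 1.11 points against CD64+Ly-6C-low cells, and 11.1 and 0.489 against CD11b+Ly-6G+ cells. Without weeks 0 and 7, the Spearman coefficient was -0.0286 for the share of CD3- cells and -0.0857 for CD64+. Calls against CD64+Ly-6C-low cells were 5 with the Ly-6C cut higher by 0.5 and 5 without the upper filter. Against CD11b+Ly-6G+ cells the CD127 difference was 1.72 and that of CD11c 3.91 with the cut lower by 0.5, and CD127 was 0.661 without the upper filter. Without CD4+ or CD90.2+ cells, CD64+ minus CD64- differences were 0.125 for CD90.2, -0.0507 for CD103 and -0.0840 for CD11c. Centred over all 11 antibodies, CD103 was -0.0889 (2 calls), and CD11c+ minus CD11c- cells gave -0.165 for CD127 and -0.0925 for CD103. With no centring, CD4 was 0.0535 and KLRG1 0.0319 between CD64+ and CD64- cells, CD127 was -0.00275 between CD11c+ and CD11c- cells, and 1 call was left there. With the Ly-6C cut moved by the background peak, CD127 was -0.00502 in that comparison. The cause was not tested for any of these beyond what each setting does by construction.

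Leaving out single libraries, the Spearman coefficient was -0.536 to 0.214 for the share of kept cells, -0.179 to 0.357 for the share of CD3- cells, 0.107 to 0.750 for CD64+, -0.393 to -0.143 for CD11c+ and 0.393 to 0.750 for the Ly-6C-high share, with no call. Calls were 0 to 3 for the other antibodies (CD4 Spearman coefficient -0.536 to 0), 0 for CD64+ against CD64-, 0 to 2 for CD11c+ against CD11c- (CD127 -0.0118 to 0.0210), 3 to 4 against CD64+Ly-6C-low and 2 to 5 against CD11b+Ly-6G+ cells (CD11c -4.65 to 0.524, CD127 -2.10 to 2.56). The 53 treated cells limit the precision of every share within them.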
